A study of Mus musculus with 9 samples.

Results

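The genes described are the 10 class I and class II histone deacetylases, taken as the rows of the deposited FPKM table whose symbol is Hdac1, Hdac2, Hdac3 or Hdac8 (class I), Hdac4, Hdac5, Hdac7 or Hdac9 (class IIa) and Hdac6 or Hdac10 (class IIb). They are 10 of the 17596 genes in the table, all 10 symbols were found, and all 10 passed the filter on low values (1 FPKM or more on average across the 9 libraries, which left 10823 genes). FPKM, fragments scaled to the length of the transcript and to the mapped fragments of the library, is a level per length of transcript, so it can be set side by side between genes.

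The study deleted Mct1 (Slc16a1), a transporter that carries lactate and other monocarboxylates across the plasma membrane, in the B-cell lineage of mice on a C57BL/6 background, and measured RNA in primary splenic B cells. The control group was Mb1Cre and the deleted group Mct1f/fMb1Cre, so that both carried the Mb1-Cre allele, which drives recombination in B-lineage cells, and only the second carried 2 floxed copies of Mct1. The mice were 6 to 8 weeks old by the study's methods. The day 0 libraries came from cells with no treatment (2 libraries of Mb1Cre and 2 of Mct1f/fMb1Cre), and the day 3 libraries from cells kept for 3 days with 10 μg/ml of LPS, a bacterial ligand of Toll-like receptor 4, and 50 ng/ml of the cytokine IL-4 (2 libraries of Mb1Cre and 3 of Mct1f/fMb1Cre), a mixture that activates B cells and induces class switching in culture. The labels tie no library to a mouse, litter or culture, so the p-values measure the spread between these libraries, which may be technical.

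Histone deacetylases remove acetyl groups from lysines of histones and other proteins, and removal from histone tails goes with tighter chromatin and less transcription. The class I enzymes are mostly nuclear and, apart from HDAC8, act inside large corepressor complexes: HDAC1 and HDAC2 in NuRD, SIN3, CoREST and MiDAC, and HDAC3 in NCoR/SMRT. The class IIa enzymes have little deacetylase activity of their own, bind MEF2 transcription factors as corepressors, and leave the nucleus bound to 14-3-3 proteins when kinases of the CaMK, PKD, SIK and MARK families phosphorylate them, whereas the class IIb enzymes HDAC6 and HDAC10 act largely in the cytoplasm, HDAC6 on tubulin and HDAC10 on acetylated polyamines.

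MEF2 factors are the best known partners of class IIa deacetylases. The promoters that held the outer bases of a form of the MEF2 motif are therefore shown here. Each runs from 250 bases before to 50 after an annotated start, 5′ to 3′ on the gene's strand (RefSeq, GRCm38.p6). The letters searched were CTANNNNTAG, a palindrome in its fixed bases and so the same on both strands, and the E-box CACGTG, the same on both strands, which binds MYC and related factors; matches are in capitals. Windows were given for 7 of the 10 genes, 11 windows in all, and Hdac1, Hdac3 and Hdac10 had none. The outer bases CTA and TAG, with 4 bases between them, were found in 3 of these 11 windows. They were found in 3.69% of 32851 windows of the same length over all genes. Other forms of the motif were not searched. The shown window of Hdac5 lies at chr11:102230123-102230422 on the minus strand, that of Hdac9 at chr12:34528840-34529139 on the minus strand, at an internal start, and that of Hdac2 at chr10:36974294-36974593 on the plus strand.
Hdac5: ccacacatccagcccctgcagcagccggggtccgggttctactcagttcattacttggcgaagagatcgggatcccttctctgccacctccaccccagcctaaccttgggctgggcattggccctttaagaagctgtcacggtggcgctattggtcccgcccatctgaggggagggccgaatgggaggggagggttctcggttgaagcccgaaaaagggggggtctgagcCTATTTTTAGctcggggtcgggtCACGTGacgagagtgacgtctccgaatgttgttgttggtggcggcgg
Hdac9: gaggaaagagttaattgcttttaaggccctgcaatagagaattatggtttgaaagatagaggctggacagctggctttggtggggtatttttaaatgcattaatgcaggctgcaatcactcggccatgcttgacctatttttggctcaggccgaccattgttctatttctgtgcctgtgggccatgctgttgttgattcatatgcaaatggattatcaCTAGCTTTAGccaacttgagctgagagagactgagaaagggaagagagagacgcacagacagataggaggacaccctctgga
Hdac2: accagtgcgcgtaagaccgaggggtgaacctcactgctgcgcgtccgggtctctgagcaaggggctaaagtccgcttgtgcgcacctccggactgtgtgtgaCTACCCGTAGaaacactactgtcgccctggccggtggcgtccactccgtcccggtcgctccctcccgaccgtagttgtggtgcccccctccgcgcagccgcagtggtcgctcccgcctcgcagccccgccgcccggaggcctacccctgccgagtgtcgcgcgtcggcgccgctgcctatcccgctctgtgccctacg
The match in the Hdac5 window, CTATTTTTAG, lies close to the start and is followed by the only E-box among the 11 windows, a motif found in 7.15% of all windows. It has A or T at all 4 middle bases, as the MEF2 motif has, which was so in 0.557% of all windows. The matches in Hdac9, CTAGCTTTAG, and Hdac2, CTACCCGTAG, have G or C among these bases and so share only the outer ones. The windows of Hdac4, Hdac6, Hdac7 and Hdac8, and a window at another start of Hdac9, held neither set of letters. A match describes these letters and was not tested as a binding site.

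The libraries carried B-cell markers at high levels on both days, though lower on day 3. Cd79b, a chain of the B-cell receptor, was at 1059 to 1299 FPKM on day 0 and at 613 to 642 on day 3. The summed FPKM of 6 B-cell markers was 4183 to 4612 on day 0 and 2182 to 2271 on day 3. Mki67, a marker of dividing cells, was at 12.01 to 17.3 FPKM on day 0 and at 68.9 to 76.3 on day 3. The deleted gene Slc16a1 was read first: on day 0 it stood at 4.33 and 3.80 FPKM in Mb1Cre and at 3.71 and 4.06 in Mct1f/fMb1Cre, and on day 3 at 22.6 and 23.0 FPKM in Mb1Cre and at 10.8, 9.81 and 9.50 in Mct1f/fMb1Cre. The genotypes were thus apart in every day 3 library and overlapped on day 0, where the gene was low in both. In an exact permutation test of the day 3 libraries (two-sided) p was 0.1, the smallest that 3 libraries against 2 allow. The loxP sites flank only part of the gene, and the values are given per whole gene. Fragments from the rest of the gene and fragments from cells without the deletion therefore cannot be told apart, and neither was tested.

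Other measurements moved with the day. The summed FPKM of 24 markers of myeloid, erythroid, T, NK and platelet cells was 1228 to 2133 in the day 0 libraries and 31.6 to 42.3 in the day 3 libraries, and for 22 of the 24 every day 0 library lay above every day 3 library; on day 3, 1 of the 24 was at 0 in all libraries. On day 3 this sum was 31.6 to 34.6 in Mb1Cre and 39.7 to 42.3 in Mct1f/fMb1Cre. Ddx3y, on the Y chromosome, was at 0.24 and 0.02 FPKM in Mb1Cre on day 0, at 31.1 and 0.20 in Mct1f/fMb1Cre on day 0, and at 14.7 to 16.9 in all 5 day 3 libraries, so 1 of 4 day 0 libraries and 5 of 5 day 3 libraries carried it. In Mb1Cre activation and sex therefore cannot be told apart, which bears also on the X-linked Hdac6 and Hdac8; the part of the other cells' RNA in the changes with activation was not tested. In bulk RNA, fewer cells of a type and less RNA per cell cannot be told apart.

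The family was led by Hdac1 in all 4 groups. In naïve Mb1Cre B cells the order by mean FPKM (± SD, n = 2) was Hdac1 with 90.3 ± 1.38, Hdac7 with 49.1 ± 0.658, Hdac10 with 32.9 ± 0.665, Hdac3 with 31.5 ± 0.686, Hdac2 with 29.3 ± 0.064, Hdac5 with 22.8 ± 0.042, Hdac9 with 12.045 ± 0.488, Hdac8 with 7.36 ± 0.375, Hdac6 with 6.20 ± 0.085 and Hdac4 with 2.51 ± 0.184. No neighbours in this order overlapped between their libraries, although Hdac10 and Hdac3 were close and did overlap in naïve Mct1f/fMb1Cre cells. By its mean over the 9 libraries Hdac1 lay above 93.9% of the genes tested and Hdac4 above 12.1%.

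After 3 days the order was different. In Mb1Cre it ran Hdac1, Hdac7, Hdac3, Hdac2, Hdac5, Hdac10, Hdac8, Hdac6, Hdac9 and Hdac4, where Hdac3 overlapped Hdac2 and Hdac6 overlapped Hdac9. Hdac10 thus stood in place 3 on day 0 and in place 6 on day 3. In Mct1f/fMb1Cre on day 3 Hdac7 followed Hdac3 and Hdac2, in place 4 rather than 2, but the libraries of Hdac3 overlapped those of Hdac2 and the libraries of Hdac2 overlapped those of Hdac7. The plot of FPKM by library shows these levels on an axis of its own for each gene.

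**Figure D1:**
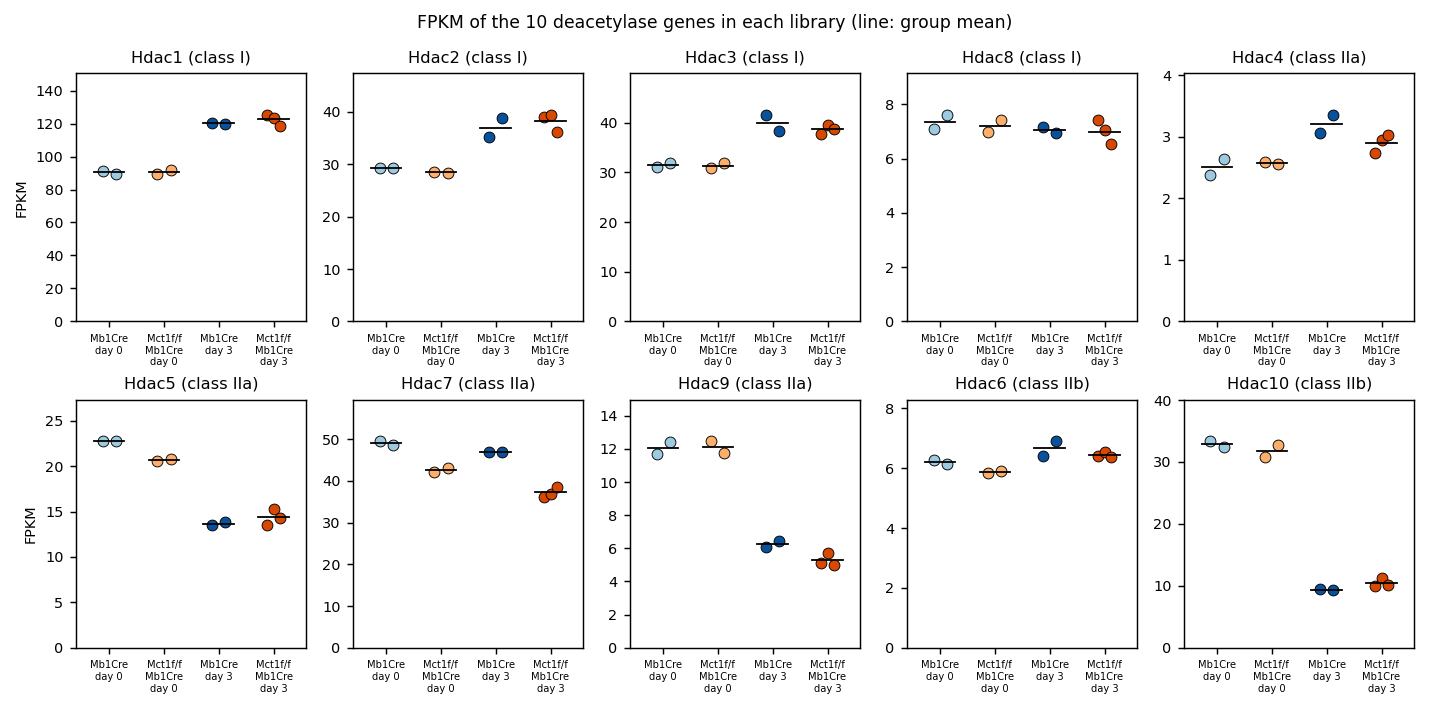
FPKM (vertical axes, from 0, on a separate scale for each gene) of the 10 deacetylase genes in the 4 groups of libraries; each point is a library and each line a group mean. Hdac10 falls from about 33 FPKM on day 0 (32.9 in Mb1Cre) to about 9 or 10 on day 3 (9.37 in Mb1Cre and 10.5 in Mct1f/fMb1Cre), and the Mct1f/fMb1Cre libraries of Hdac7 sit below those of Mb1Cre on both days.

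The first comparison asks how activation changed the family in control cells. A gene passed the test at an adjusted p under 0.05 (limma, Benjamini-Hochberg over 10823 genes) and was called when its log2 fold change was also above 0.5 in size; fold changes are on the log2(FPKM + 1) scale, which understates those of low genes, and are followed by ± SE. Hdac5, Hdac9 and Hdac10 were called, all lower on day 3, while Hdac1, Hdac2, Hdac3 and Hdac4 passed the test as higher with smaller folds. The remaining members, Hdac6, Hdac7 and Hdac8, did not pass. Called members were 3 of 10, against 57.8% of all genes tested, and 3 of 10 were called lower, against 33.0%; the 4 that passed as higher and the 3 that passed as lower stand beside 37.0% and 47.5% of all genes. The groups did not overlap for 9 of 10 members, against 91.9% of all genes. The median log2 fold change of the 10 members was 0.02 and that of all genes tested was -0.12.

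Hdac10 had the largest change of the 10 members. It was at 33.4 and 32.5 FPKM in the naïve Mb1Cre libraries and at 9.46 and 9.27 FPKM after activation. In Mct1f/fMb1Cre it was at 30.9 and 32.8 FPKM on day 0 and at 9.96, 11.2 and 10.2 FPKM on day 3. In both genotypes every day 3 library lay far below every day 0 library. The log2 fold change was -1.71 ± 0.062 in Mb1Cre (adjusted p = 4.67e-10) and -1.52 ± 0.057 in Mct1f/fMb1Cre (adjusted p = 5.31e-10), and the day 3 mean was 28.4% and 32.9% of the day 0 mean. The other class IIb gene, Hdac6, stood at 6.26 and 6.14 FPKM in Mb1Cre on day 0 and at 6.42 and 6.91 on day 3, with a log2 fold change of 0.09 ± 0.062 (adjusted p = 0.199), and at 0.11 ± 0.057 in Mct1f/fMb1Cre (adjusted p = 0.088). In Mb1Cre the value of Hdac6 was -0.09 with the libraries brought to a common total (adjusted p = 0.280), and it passed as higher under median-of-ratios scaling (0.27, adjusted p = 0.00129) and quantile normalization (0.31, adjusted p = 0.000438). In Mct1f/fMb1Cre the same 3 settings gave -0.04, 0.30 and 0.39, the last 2 of which passed.

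Within class IIa, Hdac9 and Hdac5 fell and Hdac4 did not. Hdac9 was at 11.7 and 12.4 FPKM in Mb1Cre on day 0 and at 6.06 and 6.47 on day 3. In Mct1f/fMb1Cre it was at 12.5 and 11.8 FPKM on day 0 and at 5.12, 5.74 and 5 on day 3. The days were apart in both genotypes, with log2 fold changes of -0.84 ± 0.074 in Mb1Cre (adjusted p = 7.58e-07) and -1.06 ± 0.067 in Mct1f/fMb1Cre (adjusted p = 4.35e-08). Hdac9 is transcribed both as a full enzyme and as a shorter form, MITR, that lacks the catalytic domain but still binds MEF2, and the table's single row per gene does not tell these forms apart.

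Hdac5 was at 22.8 and 22.7 FPKM in Mb1Cre on day 0 and at 13.5 and 13.9 on day 3. In Mct1f/fMb1Cre it was at 20.6 and 20.8 FPKM on day 0 and at 13.6, 15.3 and 14.3 on day 3. It was lower in every day 3 library. The log2 fold change was -0.69 ± 0.058 in Mb1Cre (adjusted p = 5.57e-07), a call, and -0.50 ± 0.053 in Mct1f/fMb1Cre (adjusted p = 4.38e-06), which passed the test but lay just short of the limit of 0.5 in size (-0.497). Without day 0 replicate 1 of Mct1f/fMb1Cre the value was -0.504, and without day 3 replicate 2 it was -0.54, both of which made it a call there, and under median-of-ratios scaling the call in Mb1Cre was lost (-0.49).

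Hdac4, the least abundant member, stood at 2.38 and 2.64 FPKM in Mb1Cre on day 0 and at 3.06 and 3.36 on day 3. The log2 fold change was 0.26 ± 0.083 (adjusted p = 0.0118). The test was no longer passed without day 0 replicate 1, without day 3 replicate 2 or with the libraries brought to a common total (the largest adjusted p was 0.252). In Mct1f/fMb1Cre the value was 0.12 ± 0.076 (adjusted p = 0.143). Hdac7, which in lymphocytes is best known as a repressor in thymocytes and in B-cell progenitors, was at 49.6 and 48.7 FPKM in naïve Mb1Cre cells and at 46.9 and 47.0 FPKM in activated ones. The days did not overlap, yet the difference was small, with a log2 fold change of -0.06 ± 0.045 (adjusted p = 0.198). Its direction depended on the scaling, with a pass as higher under median-of-ratios scaling (0.14, adjusted p = 0.0109) and as lower with a common total (-0.26, adjusted p = 0.000408) and quantile normalization (-0.16, adjusted p = 0.00789). In Mct1f/fMb1Cre Hdac7 passed as lower on day 3, by -0.19 ± 0.041 (adjusted p = 0.00106), with a value of 0.02 (adjusted p = 0.619) under median-of-ratios scaling.

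Among class I genes, Hdac1, Hdac2 and Hdac3 rose together and Hdac8 did not. Hdac1 was at 91.3 and 89.4 FPKM in Mb1Cre on day 0 and at 120.3 and 119.9 on day 3, with 89.4 and 92.0 FPKM on day 0 and 125.4, 123.5 and 118.7 on day 3 in Mct1f/fMb1Cre. Every day 3 library was above every day 0 library, and the log2 fold change was 0.41 ± 0.042 in Mb1Cre (adjusted p = 3.44e-06) and 0.43 ± 0.039 in Mct1f/fMb1Cre (adjusted p = 9.28e-07). Hdac2, the close paralog with which HDAC1 forms dimers, was at 29.4 and 29.3 FPKM in Mb1Cre on day 0 and at 35.1 and 38.9 on day 3, and at 28.5 and 28.4 FPKM and then 39.0, 39.5 and 36.1 in Mct1f/fMb1Cre. Its groups did not overlap either, and the log2 fold change was 0.32 ± 0.059 (adjusted p = 0.000355) and 0.41 ± 0.054 (adjusted p = 2.50e-05). The pair share much coding sequence, and how the authors' counting split shared reads is not given in the sources used here.

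Hdac3, the catalytic subunit of the NCoR/SMRT complex, was at 31.0 and 32.0 FPKM in Mb1Cre on day 0 and at 41.6 and 38.3 on day 3, and went from 30.8 and 31.8 FPKM to 37.7, 39.6 and 38.7 in Mct1f/fMb1Cre. All day 3 libraries were higher, with log2 fold changes of 0.33 ± 0.051 (adjusted p = 9.22e-05) and 0.29 ± 0.047 (adjusted p = 0.000118). Hdac8, known for deacetylating the cohesin subunit SMC3, was at 7.09 and 7.62 FPKM in Mb1Cre on day 0 and at 7.16 and 6.95 on day 3, and its days overlapped in both genotypes (log2 fold changes of -0.05 ± 0.072, adjusted p = 0.510, and -0.04 ± 0.066, adjusted p = 0.623). The 95% interval of the Mb1Cre difference ran from -0.21 to 0.11. Hdac8 passed as lower with a common total in both genotypes (-0.23 and -0.19) and as higher under quantile normalization in Mct1f/fMb1Cre (0.22, adjusted p = 0.0103).

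How many members were called with activation depended on the scaling. Over all genes tested, the median log2 fold change stood at -0.12 in Mb1Cre and -0.14 in Mct1f/fMb1Cre as deposited, -0.31 and -0.30 with the libraries brought to a common total, and 0.06 in both under median-of-ratios scaling. Under the last, Hdac1, Hdac2 and Hdac3 were called higher and Hdac9 and Hdac10 lower in both genotypes, a split of 3 and 2 where the deposited values gave 0 and 3 in Mb1Cre and 0 and 2 in Mct1f/fMb1Cre. With quantile normalization 1 member was called higher, Hdac4, and 3 lower in Mb1Cre, and 1 higher and 2 lower in Mct1f/fMb1Cre. Hdac1 and Hdac3 as higher and Hdac5, Hdac9 and Hdac10 as lower kept their sign and an adjusted p under 0.05 in all 14 alternatives of the fit tried for Mb1Cre and all 15 for Mct1f/fMb1Cre. Hdac2 did so in 13 of 14 and 15 of 15, the exception being the common total in Mb1Cre (log2 fold change 0.13, adjusted p = 0.087).

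The same comparison in Mct1f/fMb1Cre B cells called Hdac9 and Hdac10, 2 of 10 members, where 56.5% of all genes were called, and 33.2% were called lower. Hdac1, Hdac2 and Hdac3 passed as higher and Hdac5, Hdac7, Hdac9 and Hdac10 as lower, 3 and 4 of 10 members beside 36.4% and 49.1% of all genes. The groups did not overlap for 9 of 10 members, against 89.8% of all genes. The median over the members was 0.04 and that over all genes was -0.14. Of the naïve libraries of this genotype only replicate 1 carried Ddx3y. Without replicate 2, which leaves that 1 library on day 0 and assumes that it varies like the other groups, Hdac10 had a log2 fold change of -1.48, Hdac9 -1.10, Hdac5 -0.49, Hdac1 0.45, Hdac2 0.41 and Hdac3 0.32, all with an adjusted p of at most 0.000645 (limma), while the X-linked Hdac6 and Hdac8 stood at 0.12 (adjusted p = 0.169) and 0.00 (0.0033, adjusted p = 0.973). Replicate 1 also stood apart in a marker of myeloid cells, S100a8, at 304 FPKM against 107 to 131 in the other day 0 libraries. The part of sex in these changes was not tested.

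**Figure D2:**
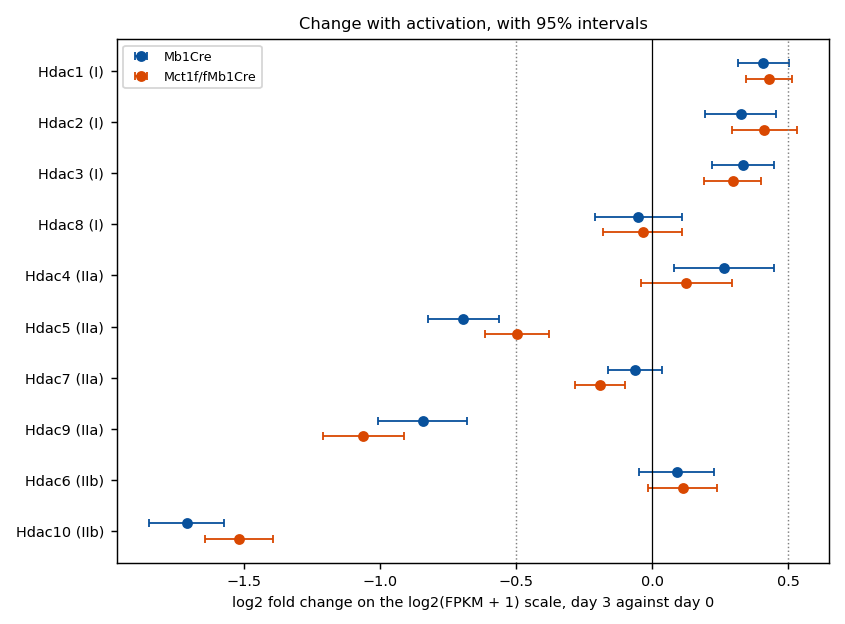
Log2 fold change on the log2(FPKM + 1) scale (horizontal axis, day 3 against day 0) of each deacetylase gene in Mb1Cre (blue) and Mct1f/fMb1Cre (orange) B cells, with 95% intervals from limma; dotted lines mark the limit of 0.5. Hdac10 lies farthest to the left at -1.71 and -1.52, followed by Hdac9 and Hdac5, and Hdac1, Hdac2 and Hdac3 lie to the right of 0 in both genotypes.

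The table holds 1 value per gene, so the shares of transcript isoforms within a gene could not be read from it, and shares are given here as each gene's part of the summed FPKM of the 10 members. The annotation lists several protein-coding transcripts for some members, 10 for Hdac7, 8 for Hdac9 and 7 for Hdac5, against 1 for Hdac1. The sum over the 10 members was 283 to 285 FPKM in naïve and 289 to 291 FPKM in activated Mb1Cre cells, and 270.2 to 277 and 277 to 288 FPKM in Mct1f/fMb1Cre. As a part of the FPKM of all genes, whose total was larger on day 3, it went from 0.0588% ± 0.0012 to 0.0522% ± 0.0012 in Mb1Cre and from 0.0562% ± 0.00016 to 0.0514% ± 0.00063 in Mct1f/fMb1Cre. The make-up was different on the 2 days. Class I genes made up 55.8% ± 0.093 (SD, n = 2) of the sum in naïve and 70.3% ± 0.266 (n = 2) in activated Mb1Cre cells, and 57.7% ± 0.101 (n = 2) and 72.9% ± 0.939 (n = 3) in Mct1f/fMb1Cre. Class IIa genes went from 30.4% ± 0.114 to 24.1% ± 0.213 in Mb1Cre and from 28.5% ± 0.390 to 21.1% ± 0.825 in Mct1f/fMb1Cre. Class IIb genes went from 13.8% ± 0.208 to 5.52% ± 0.053 and from 13.8% ± 0.289 to 5.97% ± 0.198. For each class the ranges of day 0 and day 3 were apart in both genotypes, by much more than the SD. Shares of 1 sum depend on each other, and they are given without a test.

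By gene, Hdac1 held 31.8% ± 0.356 of the sum in naïve and 41.4% ± 0.234 in activated Mb1Cre cells, and Hdac10 held 11.6% ± 0.187 and 3.23% ± 0.058. Within class I the proportions of the 3 abundant genes moved little, with Hdac1 at 57.0% ± 0.733 of its class on day 0 and 58.8% ± 0.111 on day 3, Hdac2 at 18.5% ± 0.004 and 18.1% ± 1.32, and Hdac3 at 19.9% ± 0.481 and 19.6% ± 1.13. Hdac8 was at 4.64% ± 0.248 of its class on day 0 and 3.46% ± 0.072 on day 3 in Mb1Cre. In Mct1f/fMb1Cre it was at 4.56% ± 0.115 and 3.39% ± 0.141, and its days did not overlap in either genotype. The share of Hdac1 in class I did not overlap between the days either. It ranged from 56.5 to 57.5% on day 0 and from 58.8 to 58.9% on day 3 in Mb1Cre. In Mct1f/fMb1Cre it ranged from 57.4 to 57.6% and from 58.9 to 59.8%. Within class IIa, Hdac7 went from 56.8% ± 0.742 to 67.0% ± 0.720 as Hdac5 went from 26.3% ± 0.040 to 19.5% ± 0.172 and Hdac9 from 13.9% ± 0.569 to 8.94% ± 0.303. Within class IIb, Hdac10 went from 84.2% ± 0.087 to 58.4% ± 1.61, the rest being Hdac6. In Mct1f/fMb1Cre on day 3 Hdac7 held 62.3% ± 1.47 of class IIa (n = 3) and Hdac5 24.0% ± 0.949, with no overlap with Mb1Cre on that day for either. In FPKM Hdac5 did overlap between the genotypes on day 3. On day 0 the 2 shares did not overlap with Mb1Cre either, at 54.7% ± 0.631 for Hdac7 and 26.5% ± 0.109 for Hdac5 in Mct1f/fMb1Cre (n = 2).

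**Figure D3:**
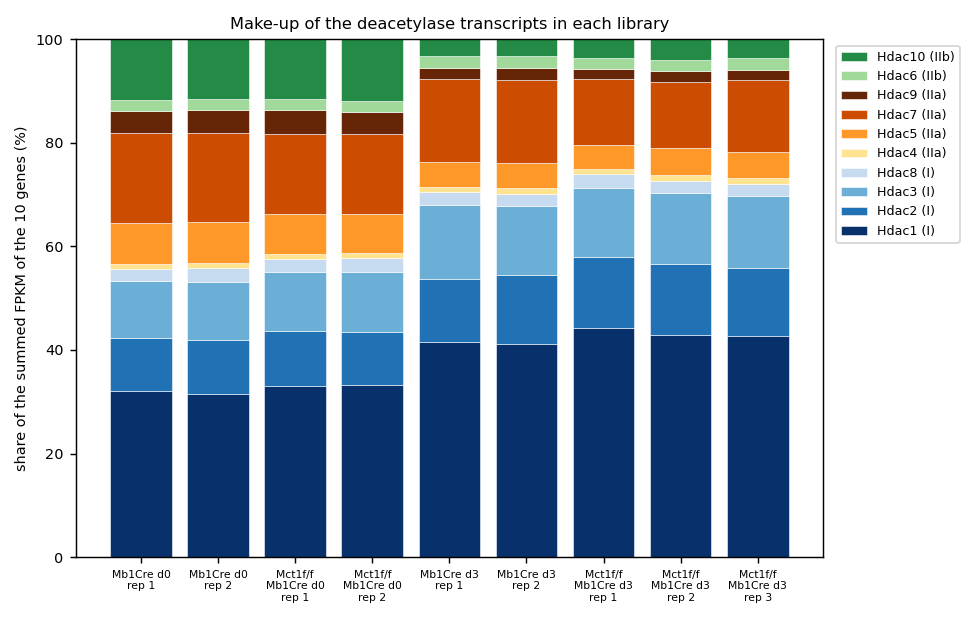
Share of each gene in the summed FPKM of the 10 deacetylase genes (vertical axis, percent), with 1 bar per library; class I is in blue, class IIa in yellow to brown and class IIb in green. The blue part reaches 55.7 to 57.7% in the day 0 libraries and 70.1 to 73.9% in the day 3 libraries, while Hdac10 shrinks from 11.4 to 11.8% to 3.19 to 3.90%.

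The second comparison asks whether loss of Mct1 altered the family in activated B cells. No member was called on day 3, against 2.42% of all genes tested (262 of 10823). Hdac7 passed the adjusted p alone, 1 of 10 members beside 15.2% of all genes, and at an unadjusted p under 0.05 there were 3 (Hdac7, Hdac9 and Hdac10) beside 29.0%. The groups did not overlap for 4 members, Hdac4, Hdac7 and Hdac9 lower and Hdac10 higher in Mct1f/fMb1Cre, beside 47.1% of all genes. The members' shares were near or below those of all genes.

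Hdac7 was at 46.9 and 47.0 FPKM in the day 3 Mb1Cre libraries and at 36.2, 36.9 and 38.6 FPKM in those of Mct1f/fMb1Cre. All 3 Mct1f/fMb1Cre libraries were lower than both controls, with a gap wider than the spread of either group. The means were 46.9 ± 0.078 (SD, n = 2) and 37.2 ± 1.25 (n = 3), the second being 79.3% of the first, and the log2 fold change was -0.33 ± 0.041 (adjusted p = 0.000507). This sign and an adjusted p under 0.05 held in 15 of 15 alternatives of the fit, with values from -0.35 to -0.29 and a largest adjusted p of 0.00932. In the exact permutation test (two-sided) of this gene alone p was 0.1, the smallest the design allows. Hdac7 (chr15:97792664-97844502, minus strand, GRCm38) overlaps Slc48a1 on the opposite strand, and without a stated strand their reads cannot be told apart in the overlap.

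Hdac7 was also lower in the naïve Mct1f/fMb1Cre libraries, with 42.2 and 43.1 FPKM against 49.6 and 48.7 in Mb1Cre. Both were below both controls, and the mean was 86.8% of that of Mb1Cre. The log2 fold change was -0.20 ± 0.045 with an unadjusted p of 0.00113 and an adjusted p of 0.131 (limma). It kept its sign in 14 of 14 alternatives and passed the adjusted p in none of them. A gene lower in Mct1f/fMb1Cre without overlap on both days was seen for 4% (433 of 10823) of all genes and, among the members, for Hdac7. The difference between the days, the interaction, was -0.13 ± 0.061 (adjusted p = 0.222), with a 95% interval from -0.26 to 0.01, so that a larger effect on day 3 than on day 0 was not shown.

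Hdac9 was at 6.06 and 6.47 FPKM in Mb1Cre on day 3 and at 5.12, 5.74 and 5 in Mct1f/fMb1Cre. The libraries did not overlap, and the log2 fold change of -0.21 ± 0.067 did not pass (adjusted p = 0.061); it passed in 1 of 15 alternatives, without Mct1f/fMb1Cre replicate 2. Hdac10 was the one member whose Mct1f/fMb1Cre libraries all lay higher on day 3, at 9.96, 11.2 and 10.2 against 9.46 and 9.27 FPKM, with a log2 fold change of 0.14 ± 0.057 that did not pass (adjusted p = 0.117). Hdac4 was at 3.06 and 3.36 FPKM against 2.73, 2.94 and 3.03, with -0.11 ± 0.076 (adjusted p = 0.379).

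For the class I genes the day 3 libraries of the genotypes overlapped. Hdac2 had means of 37.0 ± 2.68 FPKM (n = 2) in Mb1Cre and 38.2 ± 1.85 (n = 3) in Mct1f/fMb1Cre, a log2 fold change of 0.05 ± 0.054 (adjusted p = 0.647) and a 95% interval from -0.07 to 0.17. These values are levels of RNA, and protein was not measured in these files. Hdac1 stood at 0.03 ± 0.039 (adjusted p = 0.693, interval -0.06 to 0.11), Hdac3 at -0.05 ± 0.047 (adjusted p = 0.573, interval -0.15 to 0.06) and Hdac8 at -0.01 ± 0.066 (adjusted p = 0.935, interval -0.16 to 0.13). Hdac5 at 0.07 ± 0.053 (adjusted p = 0.455) and Hdac6 at -0.04 ± 0.057 (adjusted p = 0.677) did not pass either.

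In naïve cells no member was called, against 0.277% of all genes (30 of 10823), and none passed the adjusted p alone, against 0.416%. At an unadjusted p under 0.05 there were 2 members, Hdac5 and Hdac7, both lower, beside 11.7% of all genes. The groups did not overlap for 4 members, all lower in Mct1f/fMb1Cre (Hdac2, Hdac5, Hdac6 and Hdac7), beside 38.4% of all genes. Hdac5 was at 20.6 and 20.8 FPKM in Mct1f/fMb1Cre against 22.8 and 22.7 in Mb1Cre, with -0.13 ± 0.058 (adjusted p = 0.419). The other 6 members overlapped, with log2 fold changes between -0.05 (Hdac10) and 0.03 (Hdac4).

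For the interaction, the change with activation in Mct1f/fMb1Cre less that in Mb1Cre, no member was called and none passed the adjusted p (limma), against 3.23% and 9.42% of all genes. At an unadjusted p under 0.05 there were 2 of 10, beside 25.4% of all genes: Hdac5 at 0.20 ± 0.079 (adjusted p = 0.149) and Hdac10 at 0.19 ± 0.084 (adjusted p = 0.181). Both fell in each genotype, and their smaller fall in Mct1f/fMb1Cre did not pass the test. Hdac9 stood at -0.22 ± 0.0997 (adjusted p = 0.202).

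**Figure D4:**
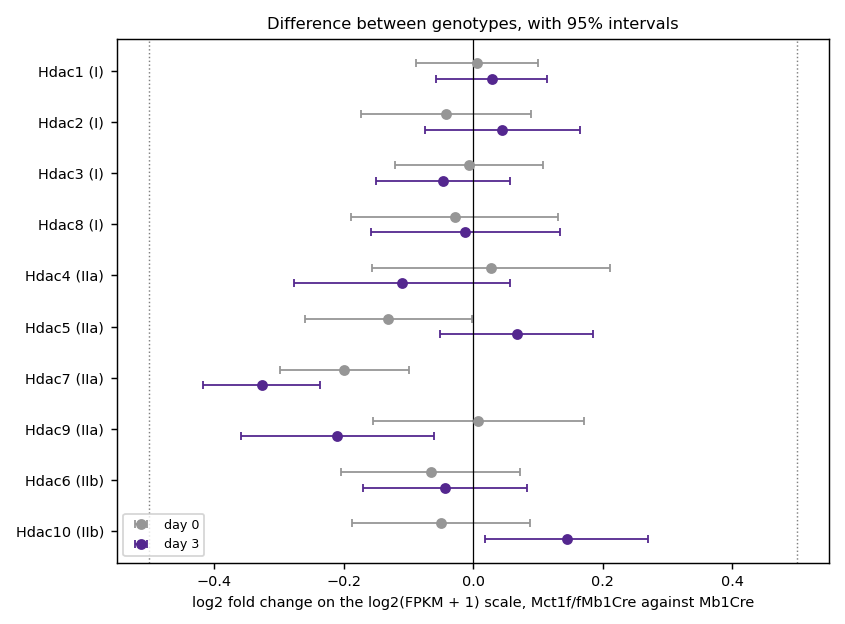
Log2 fold change on the log2(FPKM + 1) scale (horizontal axis, Mct1f/fMb1Cre against Mb1Cre) of each deacetylase gene on day 0 (grey) and day 3 (purple), with 95% intervals from limma; dotted lines mark the limit of 0.5. Hdac7 lies left of 0 on both days, at -0.20 and -0.33, and the day 3 interval of Hdac2, from -0.07 to 0.17, includes 0.

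The genes most like a member over the 9 libraries were found by Pearson's r of log2(FPKM + 1), as a description over libraries that share 4 groups. For Hdac7 they were Samd4b (r = 0.956), Junb (r = 0.943), an AP-1 transcription factor, and Sik3 (r = 0.938), a kinase of the family that phosphorylates class IIa deacetylases; 16 genes had an r above 0.9. Junb had group means of 159.5 FPKM in naïve Mb1Cre, 127 in naïve Mct1f/fMb1Cre, 146 in activated Mb1Cre and 117 in activated Mct1f/fMb1Cre cells. As for Hdac7, both Mct1f/fMb1Cre means were below both Mb1Cre means. Junb was picked by its likeness in these same libraries, so its means are no separate support for that likeness. For Hdac2 they were Sec22b (r = 0.991), Xrcc2 (r = 0.989) and Tmem107 (r = 0.989), and 2833 genes exceeded 0.9. For Hdac9 they were Maml2, Nr4a1 and Marcks (each r = 0.997), and 4181 genes exceeded 0.9. Hdac2 and Hdac9 differed between the days in both genotypes, whereas Hdac7 changed little with the day in Mb1Cre. These counts are therefore no measure of how many genes share a difference between the genotypes. A lower value in Mct1f/fMb1Cre without overlap on both days was seen for 433 of 10823 genes, as given above.

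The partners of the deacetylases were listed as 65 symbols, of which 64 were found in the table and 61 were tested. With activation of Mb1Cre cells 11 were called higher and 24 lower, with a median log2 fold change of -0.32 beside -0.12 over all genes, and in Mct1f/fMb1Cre 11 were called higher and 19 lower, with a median of -0.21 beside -0.14. Called genes thus made up 57.4% of the tested partners in Mb1Cre, beside 57.8% of all genes, and 49.2% in Mct1f/fMb1Cre, beside 56.5%; those called lower made up 39.3%, beside 33.0%, and 31.1%, beside 33.2%. The 2 comparisons share no libraries. No partner was called between the genotypes on either day.

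Among the partners of class I enzymes, NuRD had 3 genes called higher and 3 lower of 11 in activated Mb1Cre cells. Its histone chaperone Rbbp7 went from a mean of 57.0 to 154 FPKM (log2 fold change 1.42 ± 0.046, adjusted p = 1.95e-10) and Mta3, a subunit known from germinal centre B cells, from 57.1 to 27.1 FPKM (-1.05 ± 0.068, adjusted p = 6.11e-08). Rbbp4 and Rbbp7, both called higher, were counted under NuRD and not under SIN3. The SIN3 list without them had 1 called higher, Sap30 (1.04 ± 0.112, from 9.86 to 21.0 FPKM), and 4 lower of 13, led by Arid4a (-1.31 ± 0.072, from 26.6 to 10.2 FPKM). CoREST had 1 higher, Rcor2 (0.55 ± 0.117, from 1.37 to 2.45 FPKM), and 5 lower of 8, led by Phf21a (-1.16 ± 0.048, from 29.2 to 12.6 FPKM), a reader of unmethylated histone H3. NCoR/SMRT, the complex of Hdac3, had Tbl1x higher (0.57 ± 0.047) and 2 of 5 lower, led by the related Tbl1xr1 (-1.18 ± 0.076, from 16.3 to 6.66 FPKM). In MiDAC, the scaffold gene Mideas was called lower (-1.12 ± 0.062, from 36.6 to 16.4 FPKM), 1 of 2 tested. In NuRD, SIN3, CoREST and NCoR/SMRT subunits were called in both directions, and in MiDAC the single call was lower. Over all genes tested 57.8% were called in this comparison and 33.0% were called lower, so calls in both directions are not particular to these complexes.

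For class IIa, the MEF2 genes had 2 called higher and 1 lower of 4. Mef2b, a factor of germinal centre B cells, went from 3.27 to 39.2 FPKM (3.24 ± 0.089, adjusted p = 5.58e-11), and Mef2d from 92.4 to 33.8 FPKM (-1.42 ± 0.065, adjusted p = 3.00e-09). The 14-3-3 genes had 1 called higher, Ywhae (0.96 ± 0.051), and 2 lower of 7, led by Sfn (-1.71 ± 0.071, from 40.4 to 11.7 FPKM). Of 11 kinases tested 2 were called higher and 6 lower, Camk2a at 1.14 ± 0.070 (from 2.56 to 6.86 FPKM) and Camk1d at -2.01 ± 0.065 (from 13.0 to 2.47 FPKM) being the farthest in each direction. All the partner genes named for Mb1Cre had the same sign in Mct1f/fMb1Cre and an adjusted p of at most 0.000207 there (limma).

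**Figure D5:**
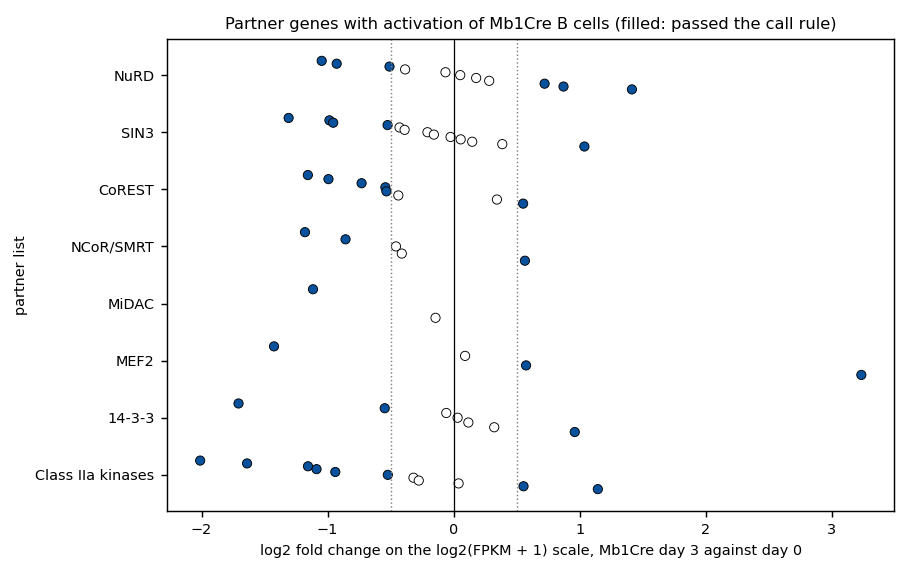
Log2 fold change on the log2(FPKM + 1) scale (horizontal axis, Mb1Cre, day 3 against day 0) of the tested partner genes, 1 point per gene, by complex or family (vertical axis); filled points were called and dotted lines mark the limit of 0.5. Each list has points on both sides of 0 except MiDAC, and Mef2b lies farthest to the right at 3.24.

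Between the genotypes on day 3, 11 of 61 partners passed the adjusted p alone, 9 higher and 2 lower in Mct1f/fMb1Cre, beside the 15.2% of all genes, and none had a fold above the limit. The 2 with the smallest adjusted p were Mideas, at 16.4 ± 0.170 FPKM (n = 2) in Mb1Cre and 20.4 ± 1.07 (n = 3) in Mct1f/fMb1Cre (log2 fold change 0.30 ± 0.057, adjusted p = 0.00518), and Mef2c, at 88.7 ± 3.47 and 107 ± 5.16 FPKM (0.27 ± 0.054, adjusted p = 0.00685), a transcription factor that B cells need for their response to antigen. Sik3, named above for its likeness to Hdac7, was 1 of the 2 lower (-0.22 ± 0.048, adjusted p = 0.0109). Every partner with a smaller adjusted p than Sik3 was higher. The likeness was read from these same libraries, so the lower value of Sik3 is no separate support for it. On day 0 Sik3 stood at -0.04 ± 0.053 (adjusted p = 0.798, limma). On day 0 no partner passed, and the smallest adjusted p belonged to Mef2b, at 3.27 and 3.27 FPKM in Mb1Cre and a mean of 2.18 ± 0.141 in Mct1f/fMb1Cre (-0.43 ± 0.089, adjusted p = 0.091), and to Prkd2 (-0.18 ± 0.038, adjusted p = 0.0999).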

How the data were processed

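RNA of 9 libraries of splenic B cells was compared in 4 groups (2, 2, 2 and 3 libraries), grouped by their labels. The authors deposited FPKM with 1 row per gene, rounded to 2 decimals; the submitters' processing notes name Bowtie2 and GRCm38/mm10, and the counter, the annotation and the strandedness are not given in the sources used here. The labels name TRNzol for RNA extraction, and the study's methods a column kit. No counts were used, so the libraries' depth is unknown, no counting interval was given, and the precision rests on 2 or 3 libraries a group. Sums of FPKM over genes were 477079 to 491459 on day 0 and 547355 to 563586 on day 3.

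From these values log2(FPKM + 1) was taken with no other scaling, and genes averaging 1 FPKM or more were fitted with limma 3.58.1 in R 4.3.3 (4 group means, eBayes with trend, Benjamini-Hochberg over 10823 genes). Hdac7 and Slc16a1 were also compared by exact permutation with scipy 1.17.1 in Python 3.11.15. The fit was also run on simulated data with independent noise in each library. The outcome is not given here and is not used as support. Gene spans and transcripts came from GENCODE and promoters from RefSeq. The 10 members, the partner lists and the tests were chosen with earlier results of these data known. The text names all members, Slc16a1, in each partner list the called gene farthest in each direction with activation of Mb1Cre cells, between genotypes the 2 partners with the smallest adjusted p where none was called, and the 3 genes most like Hdac7, Hdac2 and Hdac9. The genotype values of Sik3, and the group means of Junb, were added after values were seen. So were the marker genes Cd79b and Mki67 and the sum of the B-cell markers. Some items are not reported here. Alternatives were pseudocounts of 0.1 and 5, no filter or a mean of at least 5 FPKM, 3 other scalings, only the groups compared, the replicate block, no trend, other fold limits and each library left out.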

Additional observations from a re-analysis of the deposited data

Results flagged for a closer look

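The effect of genotype differed between the days, by the interaction in limma with an adjusted p under 0.05, for 6 of the 61 tested partner genes and for none of the 10 deacetylase genes, beside 9.42% of all genes tested. The share of the partners was thus near that of all genes. In each of the 6 the difference between Mct1f/fMb1Cre and Mb1Cre was below 0 on day 0 and above 0 on day 3. The 6 were picked by the interaction, which is the day 3 difference less that of day 0. Their signs are therefore partly set by that choice and are no separate result. The interaction (log2) was 0.37 ± 0.084 (SE) for Mideas, the MiDAC scaffold (adjusted p = 0.0232), 0.33 ± 0.080 for Mef2c (adjusted p = 0.0312) and 0.41 ± 0.096 for the 14-3-3 gene Sfn (adjusted p = 0.0271). Among the kinases of class IIa deacetylases it was 0.27 ± 0.052 for Prkd2 (adjusted p = 0.0103), 0.31 ± 0.082 for Prkd3 (adjusted p = 0.0426) and 0.29 ± 0.066 for Mark2 (adjusted p = 0.0227). None passed the fold limit of 0.5, and on day 0 alone none passed the adjusted p. On day 3 alone all but Prkd2 passed it (Prkd2 at 0.09 ± 0.035, adjusted p = 0.101, limma), so for Prkd2 a difference was shown on neither day. Among the day 0 libraries only replicate 1 of Mct1f/fMb1Cre carried Ddx3y, and the part of sex in these interactions was not tested.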

How the results depend on the processing

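With activation, 3 members were called in Mb1Cre and 2 in Mct1f/fMb1Cre; median-of-ratios scaling called 5 in each, no fold limit called 7 in each, and a limit of 1 called 1 in Mb1Cre. On day 3 no fold limit called 1 between the genotypes, Hdac7. Leaving out libraries gave 3 calls in Mb1Cre and 2 to 3 in Mct1f/fMb1Cre. The other alternatives moved no count of calls by over 1.5 times. The cause of the changes with scaling was not tested.

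None of the members called with activation changed sign. Of 755 alternative fold changes 39 did. With activation of Mb1Cre cells, median-of-ratios scaling gave Hdac8 0.13 and Hdac7 0.14, quantile normalization gave Hdac8 0.15, and a common total gave Hdac6 -0.086. In Mct1f/fMb1Cre the same settings gave Hdac8 0.16 and Hdac7 0.022, Hdac8 0.22, and Hdac6 -0.042 with Hdac4 -0.0060. Between genotypes on day 3, Hdac8 was 0.0044 under median-of-ratios scaling and 0.019 under quantile normalization. On day 0, a common total gave Hdac1 -0.0060 and Hdac9 -0.0034, median-of-ratios scaling Hdac3 0.0050, and quantile normalization Hdac4 -0.014.

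With single libraries left out, Hdac8 ranged from -0.074 to 0.0081 with activation of Mct1f/fMb1Cre cells. On day 3 between genotypes, Hdac2 ranged from -0.027 to 0.12, Hdac3 from -0.10 to 0.011, Hdac8 from -0.050 to 0.032 and Hdac6 from -0.090 to 0.0025. On day 0, Hdac1 ranged from -0.015 to 0.027, Hdac3 from -0.030 to 0.016, Hdac8 from -0.074 to 0.017, Hdac4 from -0.026 to 0.081 and Hdac9 from -0.032 to 0.048. For the interaction, Hdac3 ranged from -0.097 to 0.018, Hdac8 from -0.029 to 0.062 and Hdac6 from -0.024 to 0.068.

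Replicate numbers were shared between the days, but same-numbered libraries did not deviate together (r = -0.12 in Mb1Cre, 0.05 and 0.06 in Mct1f/fMb1Cre), so the numbers were not taken as a pairing. The fit with the replicate block called the same numbers, 3, 2, 0, 0 and 0, as did the block with the Mb1Cre day 0 numbers crossed, chosen after seeing the data; in the block, where Mct1f/fMb1Cre replicate 3 on day 3 had no counterpart, Hdac8 was 0.0081 with activation of Mct1f/fMb1Cre cells and 0.032 between genotypes on day 3. With 2 or 3 libraries a group and no read depth, a fold below the limit that did not pass is not shown to be absent.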
